A study of Mus musculus and Homo sapiens with 18 samples.

Results

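Lenses of control mice (Ctrl) were set against wild-type lens progenitor-like cells grown from neural stem cells (WT NLPCs), to ask how far the cultured cells carried the lens programme and how far they kept the neural and proliferation programmes. The comparison took 6 of the 18 RNA-seq libraries of the study, chosen by their labels: 3 of Ctrl lens and 3 of WT NLPCs. The lenses were dissected at postnatal day (P) 17 to 19 from Nestin-CreERT2; QkL/+ mice on the C57BL/6 background, which carry a tamoxifen-inducible Cre recombinase under the Nestin promoter and a floxed Qk allele beside an intact one, and tamoxifen was given at P7 and P8 in this model. The labels give these libraries the genotype control and title them wild type. The NLPCs are labelled as a primary cell line of wild-type genotype. They came from neural stem cells of whole brains of P1 Nestin-CreERT2;QkL/L mice in which Qk had not been deleted. The cells received Noggin at 100 ng/ml for 6 days, then bFGF at 100 ng/ml with BMP4 and BMP7 at 20 ng/ml each for 12 days. All 6 libraries therefore carried the Cre transgene and a floxed Qk allele. The sources used here do not say whether the NLPC libraries came from separate cultures, and p-values then measure the spread between these libraries, which may be technical. Tissue against culture, age, tamoxifen, Qk allele number and library batch all change together between the groups, so their effects cannot be told apart.

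The lens is built from a sheet of epithelial cells on its front face and a mass of elongated fibre cells that leave the cell cycle, lose their organelles and fill with crystallins. Crystallins are the soluble proteins that give the lens its refractive power. The α-crystallins are small heat shock proteins that act as chaperones, and the β- and γ-crystallins are structural. Lens fate is set by transcription factors such as Pax6, Sox2, Foxe3, Pitx3, Prox1, Maf and Hsf4, of which Pax6 and Sox2 also work in neural stem cells. Noggin blocks BMP signalling and favours neural ectoderm, and BMP and FGF ligands then favour lens fate and fibre differentiation.

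The lens libraries held 13409323 to 16425331 counts and the NLPC libraries 45350794 to 68243360. Levels are given as normalised CPM, which are counts relative to library size after TMM scaling in edgeR, and log2 differences are lens over NLPC, so that a positive value is higher in lens. An adjusted p is that of edgeR's quasi-likelihood test after Benjamini-Hochberg adjustment over all 15443 genes tested, and a gene is called at an adjusted p under 0.05. Of all genes tested, 78.0% were called, 34.7% were called higher in lens (5362) and 43.3% higher in NLPCs (6690), and the median log2 difference of all genes was -0.26. Pearson r of log2 CPM across genes was 0.555 to 0.591 between the groups, 0.95 to 0.96 within lens and 0.982 to 0.991 within NLPCs. With crystallin genes left out and TMM scaling kept, 5474 genes were called higher in lens and 6763 higher in NLPCs, with a median log2 difference of -0.28. The split of calls depended on the scaling. With total counts alone, 1795 genes were called higher in lens and 12478 higher in NLPCs, and with crystallin genes left out and total counts of the other genes alone these were 4118 and 8501. The median of all genes was then -2.33 and -0.78. Mitochondrial genes held 0.3279 to 0.4999% of lens counts and 7.31 to 8.88% of NLPC counts. WT NLPC 2 placed 10.2% of its counts on satellite-like gene models, against at most 0.224% in the others. Xist, the RNA that silences an X chromosome in females, had 865, 996 and 773 counts in the lens libraries and 12, 25 and 10 in the NLPCs, whereas the Y-linked Ddx3y had 0, 0 and 1 against 3980, 2584 and 3938. Sex therefore also differed between the groups and cannot be told apart from the system.

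The crystallins stood highest of all lists in lens, with median log2 differences of 16.83, 20.64 and 23.36 for the α, β and γ families as fitted, and 21.37 for γ with genes at 0 in NLPCs set at their bound. The 16 α-, β- and γ-crystallin genes were all called higher in lens, with no overlap between groups for any of them. Of all genes, 35.4% had every lens library above the NLPCs and 46.3% the reverse. The crystallins together took 65.3, 64.7 and 65.2% of the counts of the lens libraries (65.1% ± 0.323, SD, n = 3). In the NLPC libraries they took 0.00619, 0.00661 and 0.00645%. An exact permutation test of this share gave a two-sided p of 0.10, the smallest that 3 against 3 libraries can give. By family, the γ-crystallins held 24.5% ± 0.898 of lens counts, the β-crystallins 23.7% ± 0.736 and the α-crystallins 16.9% ± 0.633 (SD, n = 3). These shares are of counts and not per length.

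The largest share belonged to Cryaa, which encodes αA-crystallin, at 14.7, 14.7 and 14.1% of the counts of Ctrl lens 1, 2 and 3. The β-crystallin gene Cryba1 followed at 7.70, 8.92 and 8.97%. The shares of Crygb (5.53, 5.30 and 6.15%) and Crybb2 (5.72, 5.42 and 4.66%) overlapped. Crygn was the smallest, at 0.0659, 0.0831 and 0.109%.

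**Figure D1:**
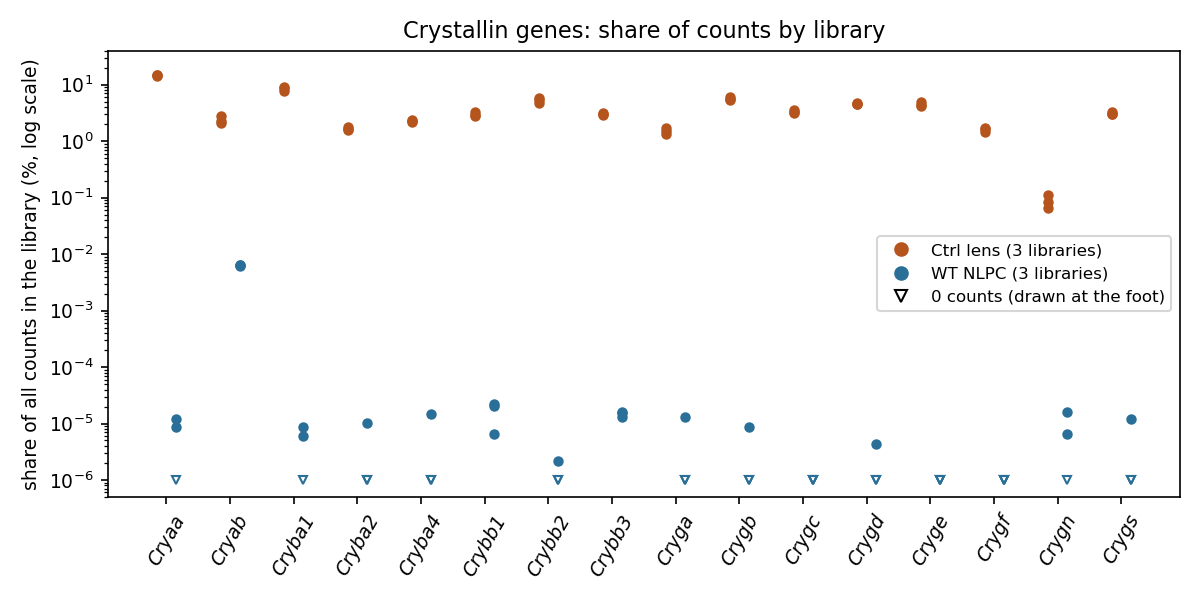
Share of all counts in the library taken by each of the 16 crystallin genes (%, log axis), with 1 point per library for 3 Ctrl lens and 3 WT NLPC libraries and open triangles at the foot for libraries with 0 counts. In NLPCs Cryab stood near 0.006% and the other 15 genes held 15 counts or fewer in each library.

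Cryab was the crystallin gene that NLPCs did express. It encodes αB-crystallin, a chaperone that many tissues outside the lens also make. This gene had 4190, 2965 and 4324 counts in the NLPC libraries, or 30.0, 34.5 and 30.4 CPM. The lens libraries held 58983, 41066 and 48479 CPM, a 1565-fold difference (log2 10.61, SE 0.30, adjusted p = 6.20e-09). Of the other 15 crystallin genes, none exceeded 15 counts in any NLPC library, in totals of 45350794 counts or more. Crygc, Cryge and Crygf had 0 counts in all 3 NLPC libraries, and against a floor of 3 counts per library they were at least 2692540-fold, 3602820-fold and 1298520-fold higher in lens. Crybb1 (15, 3 and 14 counts) and Crybb3 (11, 7 and 9) were seen in every NLPC library, Cryaa in 2 of 3 (0, 4 and 8). Floors and intervals given here cover counting error only.

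Crygc, Cryge and Crygf, which had no count in NLPCs, and Crygd, which had 2, share sequence near their starts, and these promoters are shown because the genes are among those with the widest difference. The stretches are from RefSeq (GRCm38.p6), 5′ to 3′ on the gene's strand, and capitals mark a run of 18 bases, chosen after the sequences were seen, that occurs in these 4 of the 32851 promoters searched and in no other. Its first base lay 37, 38, 26 and 40 bases before the start of Crygc (chr1:65073533-65073652, minus strand), Crygd (chr1:65063441-65063560, minus strand), Cryge (chr1:65051164-65051283, minus strand) and Crygf (chr1:65926402-65926521, plus strand), and it was not in the promoters of Cryga or Crygb.
Crygc: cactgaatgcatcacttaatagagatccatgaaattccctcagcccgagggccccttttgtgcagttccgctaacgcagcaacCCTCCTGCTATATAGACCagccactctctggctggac
Crygd: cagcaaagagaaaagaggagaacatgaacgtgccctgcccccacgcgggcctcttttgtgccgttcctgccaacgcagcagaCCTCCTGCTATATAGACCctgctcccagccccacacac
Cryge: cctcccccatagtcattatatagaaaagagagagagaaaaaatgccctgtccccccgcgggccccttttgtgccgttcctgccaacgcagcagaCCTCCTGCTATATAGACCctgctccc
Crygf: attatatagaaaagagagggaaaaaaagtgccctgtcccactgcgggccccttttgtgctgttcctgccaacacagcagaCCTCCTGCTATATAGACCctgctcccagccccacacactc

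The coding sequences of Cryge and Crygf were 98.1% identical over 522 bases, and those of Crygd were 92% and 90.8% identical to them. Reads from these genes can be split or dropped by the counting step, so that the division of counts between Cryge, Crygf and Crygd is uncertain while their sum is less so. The other pairs among Cryga to Crygf were 79.8 to 84.3% identical.

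Promoters of the other leading crystallins were searched for the Maf half-site TGCTGA and the TATA box TATAAA, on both strands of the 250 bases before the start. TGCTGA was found in 10 of the 15 crystallin promoters in the table (66.7%), against 16.1% of all promoters. TATAAA was in 3 of the 15 (20%), against 12.4%. The stretches below hold such matches in capitals for Cryaa (chr17:31677811-31677930, plus strand), Cryba1 (chr11:77725294-77725413, minus strand) and Crybb1 (chr5:112255700-112255819, plus strand). A match is a description of the letters and was not tested for binding.
Cryaa: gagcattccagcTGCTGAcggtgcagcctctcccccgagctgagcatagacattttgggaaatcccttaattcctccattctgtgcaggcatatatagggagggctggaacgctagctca
Cryba1: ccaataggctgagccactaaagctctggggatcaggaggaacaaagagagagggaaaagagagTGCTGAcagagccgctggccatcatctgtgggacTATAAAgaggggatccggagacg
Crybb1: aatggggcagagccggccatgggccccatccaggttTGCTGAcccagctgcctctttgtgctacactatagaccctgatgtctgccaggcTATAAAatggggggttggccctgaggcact

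Lens fibre genes followed the crystallins. Of the 19 that could be tested, 18 were called higher in lens and 1 higher in NLPCs, and all 18 were at least 8-fold higher, against 10.3% of all genes at that size. Their median log2 difference was 12.63, against -0.26 for all genes. Mip, the aquaporin that is the most abundant membrane protein of fibres, had 18407, 20528 and 22888 CPM in lens and counts of 0, 0 and 2 in NLPCs (adjusted p = 2.38e-09). Bfsp1, which encodes the beaded filament protein filensin, had 17556, 15227 and 15899.9 CPM and counts of 0, 1 and 0 (adjusted p = 1.85e-09). Its partner Bfsp2 (phakinin) had 12418, 11658 and 12904 CPM and was low but present in NLPCs at 0.608, 0.885 and 0.999 CPM (log2 13.86, SE 0.32, adjusted p = 2.44e-09). The groups were far from overlap in all 3.

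Lgsn, a lens protein related to glutamine synthetase, had 13319, 15383 and 12620.1 CPM in lens and 0 counts in every NLPC library, at least 533128-fold. Birc7, an inhibitor of apoptosis of the fibre cells, had 1022, 1006 and 1173 CPM and 0 counts, at least 41302-fold. The fibre connexin gene Gja3 had 987, 939 and 1108 CPM in lens and 10, 4 and 0 counts in NLPCs. All of these fibre genes were thus at or near 0 in the culture. Dnase2b, the nuclease that degrades the fibre nuclei, had 3032, 3418 and 4375 counts in lens and 0, 1 and 6 in NLPCs (adjusted p = 4.01e-09). Lenep was also at 0 in NLPCs, with 37, 28 and 31 counts in lens, at least 175-fold, although it overlaps Flad1 on the same strand and reads of the 2 genes can be confused.

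A smaller set of fibre genes had a clear level in NLPCs. Tdrd7, an RNA granule component needed for a clear lens, had 4520.1, 4676 and 4741 CPM in lens and 15.1, 14.8 and 15.8 in NLPCs (log2 8.25, SE 0.16, adjusted p = 1.74e-09). Caprin2, another RNA-binding protein of fibres, had 740.0, 364 and 1191 CPM in lens and 10.2, 9.50 and 9.29 in NLPCs (log2 6.30, SE 0.43, adjusted p = 1.08e-06), with Ctrl lens 2 the lowest. Tmod1, which caps actin filaments, had 183, 164 and 229 CPM in lens and 1.77, 1.68 and 2.27 in NLPCs. Fyco1, which carries autophagic vesicles and is a cataract gene, went the other way at 30.0, 23.9 and 23.9 CPM in lens and 59.98, 40.9 and 50.6 in NLPCs (log2 -0.97, SE 0.16, adjusted p = 0.000424). Lim2, a fibre membrane protein, was not testable, with 0, 1 and 0 counts in lens and 6, 9 and 0 in NLPCs, although it is a defining fibre gene. Its counts were too few to compare the systems. Why it was near 0 in lens, and whether the counting step missed its reads, was not tested.

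The lens epithelium list was called higher in lens in 8 of 8 members, against 34.7% of all genes. Of these, 7 were at least 8-fold higher, against 10.3% of all genes, and the median log2 difference was 7.90. Foxe3, the transcription factor that marks lens epithelium, had 47.4, 34.6 and 29.6 CPM in lens and 0 counts in all NLPC libraries, at least 1440.2-fold. Cdh1 (E-cadherin) had 346, 392 and 387 counts in lens and 4, 3 and 4 in NLPCs (adjusted p = 1.02e-09). Mab21l1, needed for lens placode growth, had 99.8, 98.3 and 97.8 CPM in lens and counts of 0, 0 and 3 in NLPCs. These defining epithelial genes were at or near 0 in the culture.

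Other epithelial genes were present in NLPCs at lower levels. Gja1 (connexin 43), abundant in both lens epithelium and astrocytes, had 109, 94.2 and 68.1 CPM in lens and 0.637, 0.605 and 0.612 in NLPCs (log2 7.19, SE 0.20, adjusted p = 6.43e-09). The glucose transporter gene Slc2a1 had 364, 335 and 357 CPM in lens and 13.5, 13.9 and 14.4 in NLPCs (log2 4.66, SE 0.10, adjusted p = 1.76e-09). The water channel gene Aqp1 had 186, 100.2 and 71.3 CPM in lens and 0.129, 0.454 and 0.359 in NLPCs. Aqp5, another water channel gene, had 123, 101 and 110.2 CPM in lens and 1.86, 2.17 and 1.96 in NLPCs. The lens values of these 4 genes were far above those of NLPCs in every library. Sparc, a matrix glycoprotein, was the nearest between systems at 1642, 1337 and 1595 CPM in lens and 675, 707 and 642 in NLPCs (log2 1.18, SE 0.12, adjusted p = 2.37e-05), and its direction flipped with total counts alone (log2 -0.90).

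**Figure D2:**
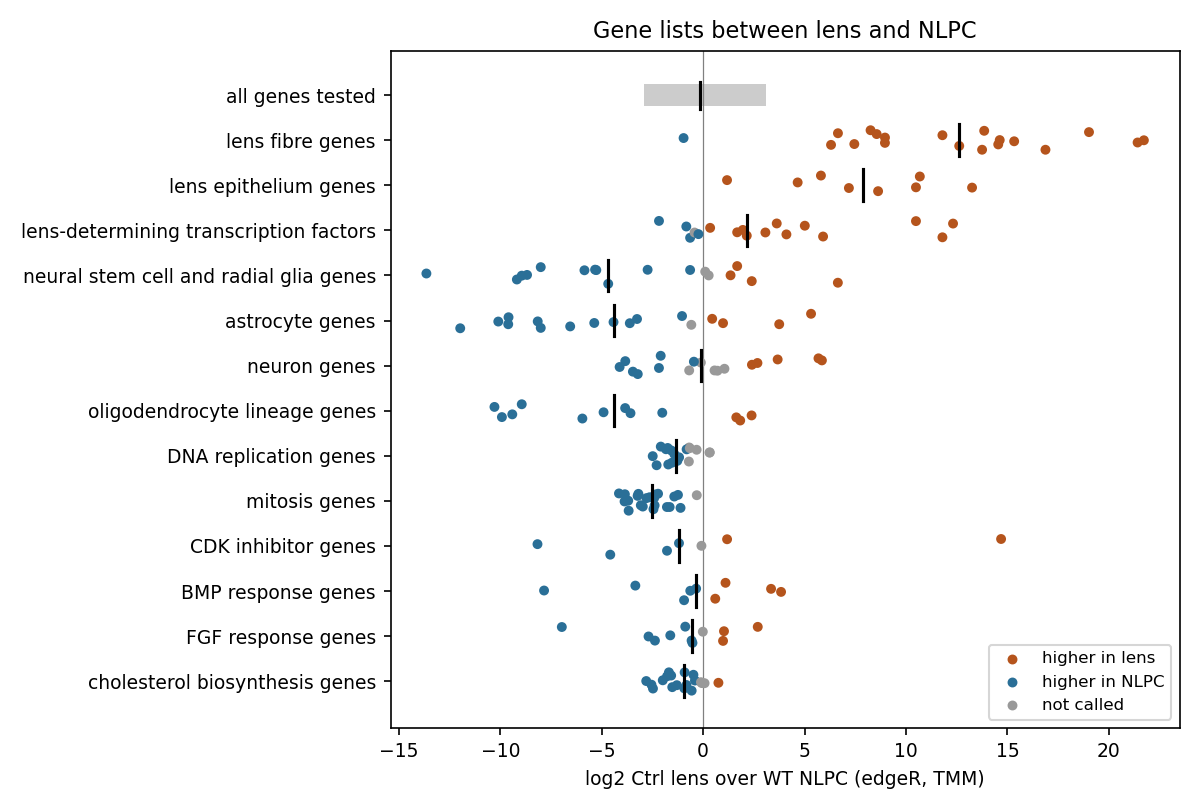
Log2 difference, Ctrl lens over WT NLPC, of each tested member of the gene lists named on the axis, coloured by the call. Black bars are medians, and the grey band spans the 10th to 90th percentile of all genes tested (-2.90 to 3.10). Genes at 0 in a group are drawn at the bound that 3 counts per library sets. Fibre and epithelium genes lie to the right, neural stem cell, astrocyte, oligodendrocyte and mitosis genes mostly to the left.

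The transcription factors that determine the lens were split. Of 17 tested, 12 were called higher in lens, 4 higher in NLPCs and 1 not called, with a median log2 difference of 2.15. Among all genes, 34.7% were called higher in lens and 43.3% higher in NLPCs. When scaled by total counts alone, 8 were called higher in lens and 7 higher in NLPCs. Pitx3, needed for lens vesicle development, had 569, 550 and 591 counts in lens and 1, 4 and 0 in NLPCs (adjusted p = 5.69e-09). Hsf4, the heat shock factor of fibre cells, had 373, 348 and 405 CPM in lens and 0.107, 0.116 and 0.0915 in NLPCs (log2 11.80, SE 0.16, adjusted p = 1.02e-09). Together with Foxe3, both were at or near 0 in NLPCs.

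Factors known to act on crystallin genes were present in both systems. Maf (c-Maf) had 1023, 754 and 1133 CPM in lens and 18.6, 13.4 and 16.3 in NLPCs (log2 5.91, SE 0.21, adjusted p = 2.23e-08). Prox1, which drives fibre elongation and exit from the cell cycle, had 696, 626 and 807 CPM in lens and 24.8, 19.3 and 21.9 in NLPCs (log2 5.01, SE 0.16, adjusted p = 9.67e-09). Sox1, which acts on γ-crystallin genes in fibres and is also an early neural factor, had 246, 193 and 287 CPM in lens and 21.0, 16.6 and 21.0 in NLPCs (log2 3.63, SE 0.17, adjusted p = 9.64e-08). All 3 were above the NLPCs in every lens library, and stayed called higher in lens with total counts alone.

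Pax6, the eye field factor, had 135, 128 and 127 CPM in lens and 39.2, 41.0 and 41.4 in NLPCs, a 3.20-fold difference (log2 1.68, SE 0.08, adjusted p = 9.18e-08), which flipped to log2 -0.40 with total counts alone. Six3, an eye field repressor, was low in both at 5.44, 7.06 and 6.60 CPM in lens and 0.415, 0.617 and 0.106 in NLPCs (log2 4.10, SE 0.55, adjusted p = 0.000118). Mafg had 93.4, 93.3 and 102 CPM in lens and 23.3, 20.9 and 20.9 in NLPCs (log2 2.15, SE 0.09, adjusted p = 5.29e-08). Gata3 had 7.77, 6.93 and 5.28 CPM in lens and 1.75, 1.69 and 1.69 in NLPCs (log2 1.96, SE 0.21, adjusted p = 2.75e-05). With total counts alone, Mafg (log2 0.07) and Gata3 (log2 -0.11) were not called.

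Meis1, a homeobox factor that regulates Pax6 in the lens placode, was higher in NLPCs, at 66.4, 56.3 and 60.2 CPM against 14.5, 15.2 and 10.8 in lens (log2 -2.18, SE 0.14, adjusted p = 6.82e-07). Sox2, a factor of both lens placode and neural stem cells, had 64.6, 65.7 and 66.3 CPM in NLPCs and 45.5, 42.1 and 38.2 in lens (log2 -0.64, SE 0.09, adjusted p = 0.000151). Eya1, a phosphatase and co-activator of the placode, had 27.7, 21.8 and 24.4 CPM in NLPCs and 10.9, 14.3 and 16.2 in lens (log2 -0.83, SE 0.16, adjusted p = 0.000968). Meis2 was slightly higher in lens (42.4, 41.8 and 44.8 against 36.5, 33.1 and 32.1 CPM, log2 0.34, SE 0.09, adjusted p = 0.00697), and this flipped with total counts alone (log2 -1.73) and with crystallins left out and total counts alone (log2 -0.20). Zeb2 differed by log2 -0.23 (adjusted p = 0.0489) and was not called with RLE size factors. Tfap2a, a surface ectoderm factor, overlapped between groups at 3.57, 4.26 and 2.51 CPM in lens and 5.14, 3.62 and 5.10 in NLPCs (log2 -0.43, SE 0.25, adjusted p = 0.151). Otx2 was not testable at 11, 34 and 3 counts in lens and 0, 1 and 10 in NLPCs.

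**Figure D3:**
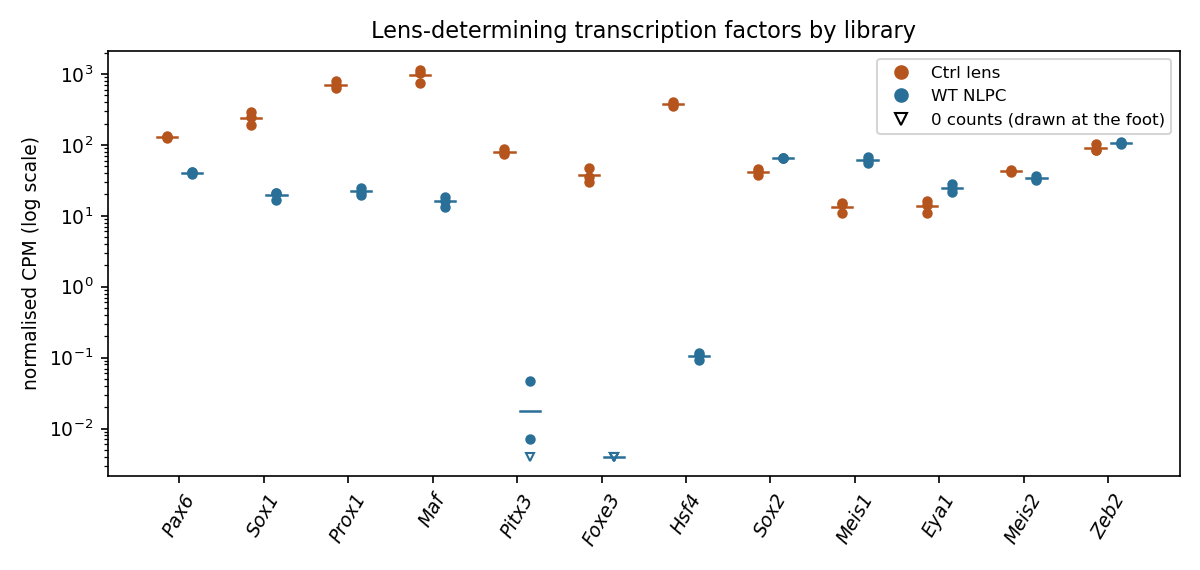
Normalised CPM (log axis) of 12 lens-determining transcription factors in 3 Ctrl lens and 3 WT NLPC libraries, with a line at the group mean and open triangles for libraries with 0 counts. Pitx3, Foxe3 and Hsf4 lie at or near 0 in NLPCs, while Pax6, Sox1, Prox1 and Maf are detected in every NLPC library and Sox2, Meis1 and Eya1 lie above the lens.

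Genes named after crystallins but encoding enzymes or relatives behaved unlike them. Of 4 tested, 2 were called higher in lens and 1 higher in NLPCs, against 34.7% and 43.3% of all genes, and 1 was not called. Cryz, a quinone oxidoreductase, had 27.4, 29.3 and 36.3 CPM in lens and 12.4, 13.4 and 12.6 in NLPCs (log2 1.28, SE 0.12, adjusted p = 1.00e-05), and Cryzl1 had 29.1, 30.5 and 33.4 CPM in lens and 18.3, 17.7 and 17.6 in NLPCs (log2 0.79, SE 0.09, adjusted p = 4.40e-05), both of which flipped with total counts alone (log2 -0.80 and -1.28). Crybg3 was higher in NLPCs (log2 -0.71, SE 0.22, adjusted p = 0.0164), and Cryl1 was not called (log2 -1.52, SE 0.70, adjusted p = 0.0727), although it was called higher in NLPCs without Ctrl lens 1 (log2 -2.88, adjusted p = 0.0173), with every gene of at least 1 count (log2 -1.75), and with total counts alone with crystallins kept or left out (log2 -3.56 and -2.04). Crym had 8 counts or fewer in each library.

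Most neural stem cell and radial glia genes were higher in NLPCs. Of 17 members tested, 11 were called higher in NLPCs and 4 higher in lens, against 43.3% and 34.7% of all genes, and 9 were at least 8-fold higher in NLPCs, against 13.1% of all genes. The median log2 difference was -4.68. Fabp7, a fatty acid binding protein of radial glia, had 86073, 56433 and 83907 counts in NLPCs and 0, 1 and 0 in lens, a ratio of 13245 (95% exact Poisson interval 2377 to 523137). Ptprz1, a receptor phosphatase of glial progenitors, had 1017, 840.5 and 903 CPM in NLPCs and 1.24, 1.60 and 1.85 in lens (log2 -9.19, SE 0.18, adjusted p = 1.76e-09). Sox21, a SoxB factor of neural progenitors, had 2653, 1707 and 2968 counts in NLPCs and 1 in all lens libraries together. The lens stood at or near 0 in Fabp7, Ptprz1 and Sox21.

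Nes, which encodes the intermediate filament nestin, and Sox9, a gliogenic factor, are named here after their values were seen. Nes had 461, 482 and 426 CPM in NLPCs and 12.9, 12.1 and 9.11 in lens (log2 -5.33, SE 0.15, adjusted p = 6.13e-09). The Cre of these mice is driven by the Nestin promoter, but Nes RNA in whole lens does not measure Cre activity, which was not tested. The paper reports nestin staining in lens epithelial cells. It also reports near-complete loss of a Qki isoform in the lens cells where Cre had acted. Sox9 had 108, 89.0 and 103 CPM in NLPCs and 2.33, 2.13 and 0.792 in lens (log2 -5.85, SE 0.23, adjusted p = 3.54e-08). Hes1, a target of Notch signalling, overlapped between the groups at 12.9, 16.8 and 10.6 CPM in lens and 10.7, 11.1 and 11.5 in NLPCs. Hes5, another such target, also overlapped, at 8.08, 11.7 and 12.1 CPM in lens and 8.69, 10.8 and 10.5 in NLPCs. With Pax6, Msi1, Prom1 and Vim, which were called higher in lens, these 2 made up the members not higher in NLPCs. Vim (vimentin), an intermediate filament of both lens and radial glia, had 2942, 2645 and 2694 CPM in lens and 1039, 1147 and 1063 in NLPCs (log2 1.35, SE 0.12, adjusted p = 8.45e-06), flipping to log2 -0.72 with total counts alone.

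Most astrocyte genes were higher in NLPCs. Of 17 tested, 12 were called higher in NLPCs, 11 of them at least 8-fold, 4 higher in lens and 1 not called, with a median log2 difference of -4.42. Among all genes, 43.3% were called higher in NLPCs, 13.1% at least 8-fold so, and 34.7% higher in lens. Their summed level was 12926 to 13395 CPM in NLPCs and 3727 to 4283 in lens. Sparcl1, a matrix protein secreted by astrocytes, had 5565, 5682 and 5248 CPM in NLPCs and 5.60, 7.06 and 8.32 in lens (log2 -9.61, SE 0.22, adjusted p = 2.52e-09). Agt (angiotensinogen) had 20441, 14786 and 21071 counts in NLPCs and 2, 0 and 1 in lens. S100b, a calcium-binding protein, had 19967, 12652 and 20795 counts in NLPCs and 1, 1 and 2 in lens. Acsbg1, a lipid enzyme of glia, had 26921, 16293 and 29049 counts in NLPCs and 1 in all lens libraries together. These 3 genes were near 0 in lens. Slc1a3 (GLAST), a glutamate transporter, had 893, 933 and 832 CPM against 2.95, 7.06 and 0.264 (log2 -8.01, SE 0.57, adjusted p = 1.57e-06), with Ctrl lens 3 the lowest.

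Gfap, the astrocyte intermediate filament, and Aqp4, the water channel of astrocyte end feet, are added after their values were seen. Gfap had 618, 763 and 658 CPM in NLPCs and 11.8, 18.5 and 18.7 in lens (log2 -5.37, SE 0.20, adjusted p = 2.38e-08), and Aqp4 429, 417 and 385 CPM in NLPCs and 20.4, 22.3 and 14.9 in lens (log2 -4.42, SE 0.16, adjusted p = 1.87e-08). Both were detected in every lens library. Aldoc, the brain aldolase, differed less, at 2325, 2478 and 2528 CPM in NLPCs and 1174, 1224 and 1162 in lens (log2 -1.04, SE 0.12, adjusted p = 3.44e-05). Clu (clusterin), a secreted chaperone, was higher in lens at 2379, 1886 and 2632 CPM against 162, 192 and 159 in NLPCs (log2 3.75, SE 0.17, adjusted p = 8.82e-08). Fgfr3 (log2 0.98, SE 0.10, adjusted p = 1.29e-05), Gjb6 (log2 5.32, SE 0.57, adjusted p = 2.51e-05) and Aldh1l1 (log2 0.44, SE 0.17, adjusted p = 0.0338) were also called higher in lens, of which Fgfr3 and Aldh1l1 flipped with total counts alone (log2 -1.10 and -1.63). Aldh1l1 was not called without any single one of the lens libraries, and these 2 last genes were named after their values were seen.

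Early genes of the oligodendrocyte lineage were higher in NLPCs. Of 19 members, 12 had counts enough to test, 9 of which were called higher in NLPCs, each at least 8-fold as fitted, and 3 higher in lens. Among all genes, 43.3% were called higher in NLPCs, 13.1% at least 8-fold so, and 34.7% higher in lens. The median log2 difference was -4.38, or -5.43 as fitted, the first with genes at 0 in lens set at their bound. Olig1, a basic helix-loop-helix factor that specifies the lineage, had 36095, 24480 and 45008 counts in NLPCs and 0 in every lens library, at least 681-fold higher. Its relative Olig2 had 28774, 17233 and 30699 counts and 0, at least 493-fold higher. Gpr17, a receptor of committed precursors, had 7039, 6883 and 7349 counts in NLPCs and 1, 0 and 0 in lens, and Bcas1, which marks cells starting to form myelin, had 5836, 4850 and 6101 in NLPCs and 0, 1 and 0 in lens. All 4 genes were at or near 0 in lens. Pdgfra, the receptor of oligodendrocyte precursors that other cell types also express, went the other way at 117, 96.4 and 115 CPM in lens and 33.4, 38.1 and 34.0 in NLPCs (log2 1.63, SE 0.10, adjusted p = 7.02e-07), flipping to log2 -0.44 with total counts alone. Myrf and Mbp, a myelin gene regulator and myelin basic protein, were also called higher in lens, but Myrf flipped with total counts alone (log2 -0.24) and Mbp was not called without any single one of the lens libraries. Of the genes of myelinating cells, Mog, Mag, Mobp, Cldn11, Opalin and Ermn had at most 16 counts in any NLPC library. Sox10, a factor of the whole lineage, had 6, 21 and 53 counts in NLPCs. Apart from Olig1, Olig2, Gpr17, Bcas1 and Pdgfra, these genes were named after their values were seen.

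**Figure D4:**
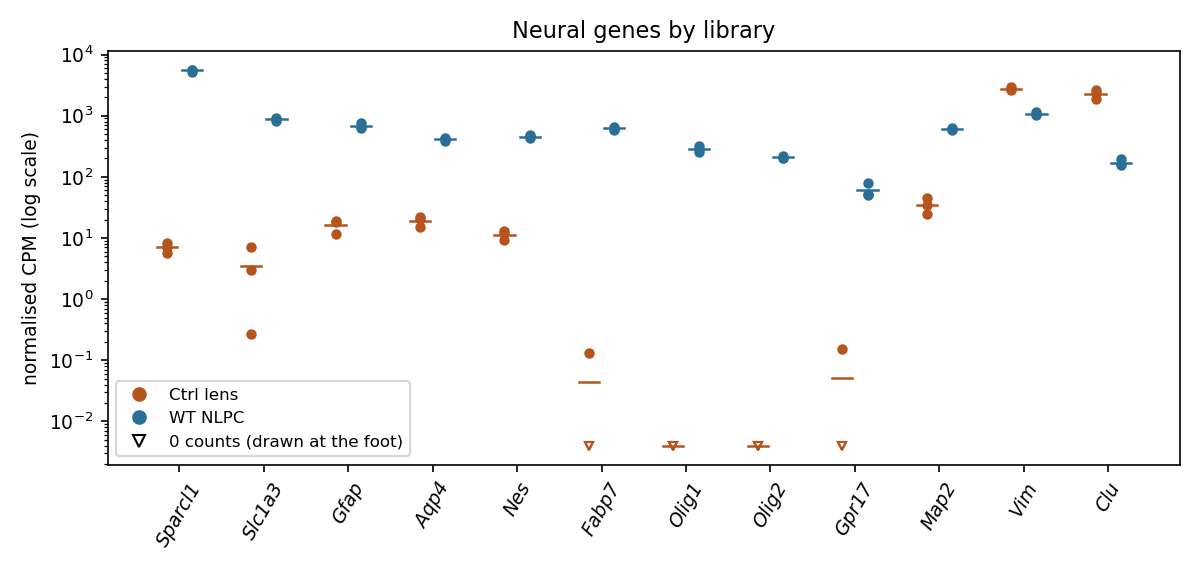
Normalised CPM (log axis) of 12 neural stem cell, astrocyte, oligodendrocyte lineage and neuron genes in 3 Ctrl lens and 3 WT NLPC libraries, with a line at the group mean and open triangles for 0 counts. NLPCs lie above the lens for the 10 genes from Sparcl1 to Map2 and below it for Vim and Clu.

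Neuron genes did not move as a group. Of 17 tested, 7 were called higher in NLPCs and 5 higher in lens, against 43.3% and 34.7% of all genes. The other 5 were not called, and the median log2 difference was -0.11, against -0.26 for all genes. Map2, a microtubule protein, had 629.9, 598 and 584 CPM in NLPCs and 45.5, 34.4 and 24.6 in lens (log2 -4.12, SE 0.21, adjusted p = 1.66e-07), and Tubb3, the neuronal tubulin, 14.03, 21.6 and 17.4 CPM in NLPCs and 3.26, 5.06 and 3.30 in lens (log2 -2.18, SE 0.23, adjusted p = 2.62e-05). Dlx1, a factor of inhibitory neurons, had 123, 28 and 75 counts in NLPCs and 0 in lens. The median thus hid members called in both directions.

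Some neuron genes called higher in lens had most of their counts in Ctrl lens 2, a library that also held the most photoreceptor transcripts. Sag, the arrestin of rods, had 170, 1658 and 15 counts in Ctrl lens 1, 2 and 3 and 65, 57 and 37 in NLPCs. All 8 photoreceptor genes of the list were highest in Ctrl lens 2, and their summed level was 3.04 to 725 CPM in lens and 0.676 to 1.19 in NLPCs. Snap25, a synaptic fusion protein, had 13, 109 and 22 counts in the same lens libraries (log2 5.69, SE 0.85, adjusted p = 0.000228). Slc17a7, a vesicular glutamate transporter that photoreceptors also use, had 34, 210 and 2 (log2 5.85, SE 1.11, adjusted p = 0.00107). Ctrl lens 2 was the highest in both. Prom1, which photoreceptors also express and which was named after its values were seen, had 19, 164 and 6. Nefh, a neurofilament gene, was not called without any single one of the lens libraries. Without Ctrl lens 2, Syp (log2 -1.37) and Gad1 (log2 -2.37), a synaptic vesicle protein and an enzyme of GABA synthesis that were not called with all libraries, were called higher in NLPCs.

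Markers of other cells were also read. Of all genes, 34.7% were called higher in lens and 43.3% higher in NLPCs. A gene near 0 in either group could pass the filter on counts only through the other, so its direction was largely fixed in advance. The tested stromal and mural genes summed to 91.0 to 198 CPM in lens and at most 0.780 in NLPCs. They were led by Acta2 (484, 1127 and 411 counts in lens, 2, 1 and 0 in NLPCs) and Pdgfrb. Of 9 members 5 were tested, and all 5 were called higher in lens (4 with total counts alone and 4 without Ctrl lens 1). Pigment cell genes summed to 8.05 to 16.8 CPM in lens and 1.01 to 1.26 in NLPCs. Of 6 members 4 were tested, and all 4 were called higher in lens (2 with total counts alone and 3 without Ctrl lens 2). Endothelial genes summed to 6.37 to 11.2 CPM in lens and 0.753 to 1.35 in NLPCs. Of 5 members 3 were tested, and all 3 were called higher in lens. With total counts alone 1 was called. With the replicate block, in the fit of 12 libraries or without Ctrl lens 3, WT NLPC 1 or WT NLPC 3, 2 were called. Blood genes summed to 1.58 to 4.20 CPM in lens and 0 in NLPCs for Hbb-bs, the 1 tested of 5 members. Of 8 leukocyte genes 2 were tested, of which Csf1r was higher in lens and Cd68 in NLPCs. The keratins of cornea and surface epithelium, Krt5, Krt12 and Krt14, were at 0 in all lens libraries, although Aldh3a1, abundant in cornea, had 433, 275 and 194 counts in lens and 11, 6 and 14 in NLPCs. Of 4 ependymal genes 3 were tested, and all 3 were called higher in NLPCs. Foxj1, the factor of multiciliated cells, had 1538, 990 and 1615 counts in NLPCs and 3, 0 and 2 in lens. Of these, 2 of 3 were called with DESeq2, with the replicate block, in the fit of 12 libraries and without any single lens library. The part of these other cells in the differences above was not tested. In bulk RNA, fewer cells of a type and less RNA per cell cannot be told apart.

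Proliferation genes were higher in NLPCs. Of 22 mitosis genes tested, 21 were called higher in NLPCs, 8 of them at least 8-fold, and none higher in lens, with a median log2 difference of -2.55. The shares of all genes were 43.3% higher in NLPCs, 13.1% at least 8-fold so, and 34.7% higher in lens. Mki67, the Ki-67 marker of cycling cells, had 206, 210.1 and 222 CPM in NLPCs and 18.96, 17.7 and 12.7 in lens, a 13.0-fold difference (log2 -3.70, SE 0.14, adjusted p = 2.98e-08). Top2a, the topoisomerase that untangles chromosomes, had 139.5, 153 and 151 CPM in NLPCs and 15.4, 19.3 and 12.4 in lens (log2 -3.23, SE 0.15, adjusted p = 8.27e-08). The kinetochore genes Cenpf (log2 -3.88, SE 0.13, adjusted p = 1.29e-08) and Cenpe (log2 -4.15, SE 0.13, adjusted p = 1.09e-08) and the spindle gene Tpx2 (log2 -3.86, SE 0.16, adjusted p = 5.49e-08) differed by more. The groups did not overlap in these 5 genes, and 46.3% of all genes had every NLPC library above the lens. Ccnb2, a mitotic cyclin gene, was the member not called (log2 -0.32, SE 0.27, adjusted p = 0.312). All 22 were called higher in NLPCs when scaled by total counts alone.

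Mki67 is shown with its promoter (chr7:135716380-135716499, minus strand, GRCm38.p6), in which capitals mark the letters TTTGAA, an element that cell cycle genes use. It occurred on either strand in 7 of the 17 mitosis promoters in the table (41.2%), in 3 of 15 crystallin promoters (20%) and in 16% of all promoters.
Mki67: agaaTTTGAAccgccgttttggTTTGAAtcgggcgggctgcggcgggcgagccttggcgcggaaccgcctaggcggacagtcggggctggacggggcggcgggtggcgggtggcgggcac

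DNA replication genes moved less. Of 18 tested, 12 were called higher in NLPCs, none higher in lens and 6 not called, with a median log2 difference of -1.35. The shares of all genes were 43.3% higher in NLPCs and 34.7% higher in lens. None of the 18 reached 8-fold, against 13.1% of all genes that were at least 8-fold higher in NLPCs. The helicase subunit gene Mcm5 had 35.4, 43.6 and 43.4 CPM in NLPCs and 7.93, 9.33 and 4.62 in lens (log2 -2.49, SE 0.21, adjusted p = 4.80e-06). Another subunit gene, Mcm3, had 26.1, 29.5 and 32.5 CPM in NLPCs and 6.99, 8.80 and 4.89 in lens (log2 -2.09, SE 0.19, adjusted p = 7.50e-06). The licensing gene Cdc6 (log2 -2.30, SE 0.33, adjusted p = 0.000197) and Cdc45 (log2 -1.84, SE 0.17, adjusted p = 1.05e-05) were also called. Pcna, the sliding clamp of the polymerases, had 30.6, 36.8 and 36.0 CPM in NLPCs and 11.5, 14.8 and 12.1 in lens (log2 -1.42, SE 0.13, adjusted p = 8.36e-06). Mcm2 overlapped between groups, at 21.3, 24.5 and 27.9 CPM in NLPCs and 21.6, 20.8 and 16.6 in lens (log2 -0.32, SE 0.14, adjusted p = 0.061), and it was called higher in NLPCs without Ctrl lens 1, Ctrl lens 2 or WT NLPC 1 (log2 -0.46, -0.44 and -0.40), with either other filter on counts (log2 -0.47 and -0.56), with crystallins left out (log2 -0.37) and with protein-coding genes alone (log2 -0.35). All 18 were called higher in NLPCs with total counts alone.

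CDK inhibitors, which hold the cell cycle, did not move one way: 2 of 7 were called higher in lens, 4 higher in NLPCs and 1 was not called. The shares of all genes were 34.7% higher in lens and 43.3% higher in NLPCs. Cdkn1c (p57), the inhibitor that lens fibres use to leave the cycle, had 1812, 2251 and 3264 counts in lens and 4, 0 and 0 in NLPCs (adjusted p = 6.73e-09), and it overlaps an antisense gene model, Gm44732. Cdkn2c (p18) had 30.5, 31.3 and 25.9 CPM in lens and 11.4, 12.6 and 14.7 in NLPCs (log2 1.18, SE 0.13, adjusted p = 2.93e-05), flipping to log2 -0.89 with total counts alone. Cdkn1b (p27), which fibres also express, was higher in NLPCs at 97.6, 93.4 and 93.8 CPM against 46.5, 39.8 and 38.4 (log2 -1.19, SE 0.09, adjusted p = 3.13e-06). Cdkn1a (p21) had 1242, 892 and 1551 counts in NLPCs and 3, 3 and 3 in lens (log2 -4.58, SE 0.25, adjusted p = 2.74e-07), and Cdkn2a, which marks cultured and senescent cells, 1922, 1188 and 2021 and 0, 1 and 0. Cdkn2b was low in both and higher in NLPCs (log2 -1.78, SE 0.31, adjusted p = 0.000608), and Cdkn2d overlapped (log2 -0.09, SE 0.16, adjusted p = 0.626).

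**Figure D5:**
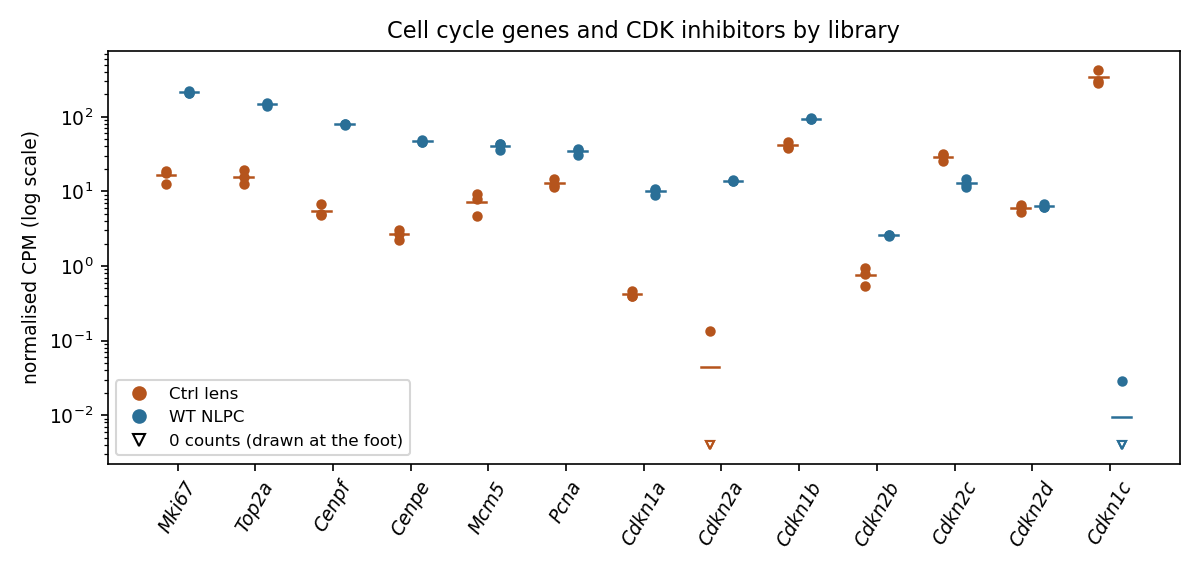
Normalised CPM (log axis) of 6 cell cycle genes and the 7 CDK inhibitors in 3 Ctrl lens and 3 WT NLPC libraries, with a line at the group mean and open triangles for 0 counts. NLPCs lie above the lens for the 6 cell cycle genes and for Cdkn1a, Cdkn2a, Cdkn1b and Cdkn2b, and below it for Cdkn2c and Cdkn1c.

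Genes that respond to the ligands of the NLPC protocol went both ways. Of 9 BMP response genes tested, 4 were called higher in lens and 5 higher in NLPCs, against 34.7% and 43.3% of all genes. Their median log2 difference was -0.35, near the -0.26 of all genes. Bmp7, a ligand, had 41.3, 34.0 and 32.3 CPM in lens and 2.13, 2.31 and 3.05 in NLPCs (log2 3.84, SE 0.17, adjusted p = 8.21e-08), and Smad6, an inhibitor in the pathway, 25.3, 24.3 and 24.3 CPM in lens and 2.20, 2.47 and 2.59 in NLPCs (log2 3.35, SE 0.13, adjusted p = 2.96e-08). The direct target Id2 had 57.4, 58.9 and 61.0 CPM in lens and 34.5, 40.7 and 42.1 in NLPCs (log2 0.60, SE 0.10, adjusted p = 0.000478), and flipped to log2 -1.48 with total counts alone. Id3 had 37.5, 29.5 and 31.0 CPM in lens and 37.8, 43.7 and 43.0 in NLPCs (log2 -0.35, SE 0.12, adjusted p = 0.0207), and was not called without WT NLPC 2 or without WT NLPC 3. Id4 was higher in NLPCs, at 78.0, 77.1 and 70.7 CPM against 8.08, 5.997 and 8.19 in lens (log2 -3.34, SE 0.13, adjusted p = 3.15e-08). The Id genes were thus split. Nog, which encodes the antagonist Noggin, had 1646, 839 and 1687 counts in NLPCs and 1, 0 and 0 in lens.

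Of 11 FGF response genes, 3 were called higher in lens and 7 higher in NLPCs, against 34.7% and 43.3% of all genes. Their median log2 difference was -0.57, against -0.26 for all genes. Fgfr2, a receptor, had 210.5, 218 and 175 CPM in lens and 33.2, 27.98 and 32.3 in NLPCs (log2 2.69, SE 0.12, adjusted p = 5.97e-08), while Fgfr1 had 79.6, 58.2 and 56.9 CPM in lens and 94.3, 84.8 and 101 in NLPCs (log2 -0.53, SE 0.14, adjusted p = 0.00631). Etv4, an ETS factor induced by FGF, had 7366, 4078 and 8224 counts in NLPCs and 3, 4 and 2 in lens (log2 -6.97, SE 0.21, adjusted p = 7.46e-09). The feedback inhibitors Spry4 (log2 -2.69, SE 0.24, adjusted p = 7.57e-06) and Spred2 (log2 -2.38, SE 0.18, adjusted p = 2.36e-06) were higher in NLPCs, and Etv5 overlapped (log2 -0.02, SE 0.11, adjusted p = 0.884). Spry1, another feedback inhibitor, named after its values were seen, was higher in lens at 53.6, 28.9 and 35.4 CPM against 17.5, 18.1 and 22.1 in NLPCs (log2 1.03, SE 0.21, adjusted p = 0.00151) and flipped to log2 -1.06 with total counts alone. Receptors and feedback inhibitors were thus each found on both sides.

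Cholesterol biosynthesis, the pathway the study follows, was higher in NLPCs for most of its enzymes. Of 19 tested, 15 were called higher in NLPCs, 1 higher in lens and 3 not called, and none reached 8-fold. Of all genes, 43.3% were called higher in NLPCs and 34.7% higher in lens, 13.1% and 10.3% at least 8-fold so. The median log2 difference was -0.93, against -0.26 for all genes. Hmgcs1, which makes HMG-CoA, had 694, 715 and 638 CPM in NLPCs and 85.5, 99.0 and 108 in lens (log2 -2.81, SE 0.12, adjusted p = 6.30e-08). Msmo1, Sc5d, Sqle and Cyp51, which act on squalene and the sterols after it, differed by log2 -2.55, -2.48, -1.99 and -1.78. Each had every NLPC library above the lens, as did 46.3% of all genes. Idi1, which isomerises isopentenyl diphosphate and is named after its values were seen, was higher in lens at 30.9, 36.5 and 37.4 CPM against 19.9, 22.6 and 19.8 (log2 0.75, SE 0.11, adjusted p = 0.000184), flipping to log2 -1.32 with total counts alone.

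Qk (chr17:10202601-10319854, mm10), the RNA-binding protein gene deleted elsewhere in the study, had 1 floxed allele in the tamoxifen-treated lens donors and 2 floxed alleles, not deleted, in the NLPC donors. It had 226, 217 and 245 CPM in lens and 1309, 1204 and 1229 in NLPCs, 5.45-fold higher in NLPCs (log2 -2.45, SE 0.11, adjusted p = 8.52e-08), with no overlap. The allele number, the tissue and the culture cannot be told apart in this value.

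Housekeeping genes showed how far the scaling carries. Of 12, 8 were called higher in lens and 4 higher in NLPCs, against 34.7% and 43.3% of all genes. Their median log2 difference was 1.13. With total counts alone 1 was called higher in lens and 8 higher in NLPCs, with a median of -0.95. Rplp0, a ribosomal protein gene, had 1592, 1537 and 1185 CPM in lens and 138, 166 and 163 in NLPCs (log2 3.21, SE 0.16, adjusted p = 1.35e-07), and Actb 3613, 3582 and 4184 CPM in lens and 988, 1110.5 and 1044 in NLPCs (log2 1.86, SE 0.14, adjusted p = 1.87e-06), which flipped to log2 -0.22 with total counts alone, whereas Tbp was higher in NLPCs (log2 -2.44, SE 0.19, adjusted p = 2.73e-06). The median of all genes moved from log2 -0.26 to -2.33 between these scalings, and the log2 differences of every list shifted with it.

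The same contrast was read in 6 other libraries, 3 of Qk-iCKO lens and 3 of Qk-/- NLPCs, in which Qk had been deleted through the same Cre by tamoxifen in the mouse and by 4OHT in culture. There 29.8% of 15357 genes were called higher in lens and 34.8% higher in NLPCs. Of the genes called higher in Ctrl lens, 3860 of 5362 (72%) were called higher in lens again, and of those called higher in WT NLPCs 4651 of 6690 (69.5%) were called higher in NLPCs again, while 125 were called the opposite way. The lists with the widest differences were called the same in full or nearly so: 16 of 16 crystallins, 18 of 18 fibre genes, 8 of 8 epithelium genes, 10 of 11 neural stem cell genes, 11 of 12 astrocyte genes, 9 of 9 oligodendrocyte lineage genes and 19 of 21 mitosis genes. Of the 12 transcription factors called higher in lens, 10 were so again, Gata3 was not called and Meis2 was called higher in NLPCs. Of the 5 neuron genes called higher in lens, 1 was so again. Of the cholesterol genes, 13 of 15 were higher in NLPCs again. Sex did not separate these libraries in the same way, since Ddx3y had 545 and 420 counts in Qk-iCKO lens 2 and 3, and none of the 4 Y-linked genes was called, although Xist was again called higher in lens.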

How the data were processed

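Bulk RNA-seq (total RNA, stranded TruSeq libraries, paired-end reads) had been deposited as raw read counts per gene on mm10, in a table for the lenses and another for the NLPCs. The authors' methods name STAR 2.6.1b and HTSeq 0.11.0, and the submitters' processing notes also name HISAT2 2.0.4 and featureCounts. Which tool made which counts is not given in the sources used here. The layout of the lens table is that of featureCounts.

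The tables, of 46882 and 54838 rows, were joined on 44088 shared gene symbols, which held 97.97 to 99.38% of the counts. Tables counted apart carry their own batch and annotation, and 746 genes under former symbols were not joined in the comparison as reported. Crybg1 and Crybg2 were not joined. Libraries were grouped by their labels. Genes were filtered with filterByExpr (minimum count 10, total 15) and tested with edgeR 4.0.16 in R 4.3.3 by the quasi-likelihood test with TMM factors (0.464 to 0.516 in lens, 1.93 to 2.14 in NLPCs), over the 6 libraries with no covariate. The biological coefficient of variation was 0.174. No pair of libraries differed by less than sampling noise. A fold against a group at 0 was computed against 3 counts per library.

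Alternatives were other scalings and filters, DESeq2 1.42.0, a replicate block, a 2-fold minimum, all 12 mouse libraries in a fit, and leaving out each library. Matching former symbols and keeping protein-coding genes were chosen after seeing the data. The comparison, its members and the gene lists were chosen with earlier results of these data known. Named were every lens-programme gene and CDK inhibitor, from each other list the 4 called members of largest change and the 3 of highest level, and over all genes the 12 of largest change each way among called genes with a mean of at least 50 CPM in the higher group. Aldh1l1, Aqp4, Ccnb2, Cldn11, Ermn, Etv5, Gad1, Gfap, Gjb6, Hes1, Hes5, Idi1, Krt5, Krt12, Krt14, Mag, Mbp, Mobp, Mog, Msi1, Myrf, Nefh, Nes, Opalin, Prom1, Qk, Sox9, Sox10, Spry1, Syp and the genes in the closing section fall outside this rule and were chosen after their values were seen. Some genes of the lists are not reported here by name.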

Additional observations from a re-analysis of the deposited data

Results flagged for a closer look

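The difference between lens and NLPC was compared between the control libraries and the Qk-deleted libraries by an interaction term in an edgeR fit over 12 libraries. In 7 genes of the lists the difference was called one way in the controls and the opposite way in the deleted libraries, and the interaction was called too. The interaction was read only for genes picked by these opposite calls in the same libraries, so its call adds no separate support. The values below are log2, controls minus Qk-deleted, with adjusted p over all genes, and the levels are normalised CPM of that fit. Cd68, a lysosomal protein of macrophages, differed by -5.60, SE 0.61, adjusted p = 0.000247. It had 0.319, 0.273 and 0.408 CPM in Ctrl lens, 2.10, 2.65 and 2.16 in WT NLPCs, 28.8, 9.82 and 29.8 in Qk-iCKO lens and 3.18, 3.60 and 2.90 in Qk-/- NLPCs. Cdkn2b, a CDK inhibitor, differed by -3.68, SE 0.49, adjusted p = 0.0009. Its levels were 0.957, 0.545 and 0.815 CPM in Ctrl lens, 2.69, 2.84 and 2.76 in WT NLPCs, 4.88, 3.64 and 2.50 in Qk-iCKO lens and 1.14, 0.862 and 1.11 in Qk-/- NLPCs. Gap43, a protein of growing axons, differed by -4.49, SE 0.56, adjusted p = 0.000554, with 0.159, 0.273 and 0.136 CPM in Ctrl lens, 1.93, 2.58 and 2.18 in WT NLPCs, 3.02, 3.64 and 5.39 in Qk-iCKO lens and 2.23, 2.12 and 1.78 in Qk-/- NLPCs. In these 3 genes the lens mean lay below NLPCs in the controls and above them with Qk deleted.

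The other 4 genes went the reverse way. Snap25, the synaptic protein that was highest in Ctrl lens 2, differed by 7.31, SE 1.08, adjusted p = 0.00166, at 2.07, 14.9 and 2.99 CPM in Ctrl lens, 0.0835, 0.267 and 0.0825 in WT NLPCs, 4.30, 2.00 and 0.769 in Qk-iCKO lens and 9.98, 6.78 and 7.70 in Qk-/- NLPCs. Spry1, an inhibitor of FGF signalling, differed by 1.70, SE 0.29, adjusted p = 0.00386. Its levels were 55.0, 29.6 and 36.4 CPM in Ctrl lens, 18.5, 19.8 and 23.5 in WT NLPCs, 26.3, 20.5 and 20.2 in Qk-iCKO lens and 37.9, 34.3 and 39.98 in Qk-/- NLPCs. Id2, a BMP target, differed by 1.36, SE 0.19, adjusted p = 0.00113. Its levels were 58.8, 60.3 and 62.8 CPM in Ctrl lens, 36.6, 44.5 and 44.9 in WT NLPCs, 24.5, 23.1 and 27.3 in Qk-iCKO lens and 44.8, 38.3 and 49.8 in Qk-/- NLPCs. Meis2, a homeobox factor, differed by 1.24, SE 0.23, adjusted p = 0.00571. Its levels were 43.5, 42.8 and 46.1 CPM in Ctrl lens, 38.8, 36.2 and 34.2 in WT NLPCs, 22.6, 32.2 and 19.4 in Qk-iCKO lens and 50.5, 49.9 and 43.5 in Qk-/- NLPCs. In the controls the directions of Id2, Meis2 and Spry1 flipped with total counts alone (log2 -1.48, -1.73 and -1.06).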

How the results depend on the processing

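With total counts alone, 1795 genes were called higher in lens and 12478 higher in NLPCs. Neuron genes called higher in lens then went from 5 to 3 and transcription factors called higher in NLPCs from 4 to 7. A filter of 10 counts or more in each library, which by construction drops genes that are silent in a system, left 4267 genes higher in NLPCs, 24 of 54 called lens-programme genes and 13 of 37 called neural genes. By list it left 8 fibre and 5 epithelium genes higher in lens, 2 neuron genes in each direction, and 4 neural stem cell, 7 astrocyte and 0 oligodendrocyte lineage genes higher in NLPCs. A 2-fold minimum left 15 of 27 induction and cholesterol genes, 9 of 15 cholesterol genes and 1 of 4 transcription factors higher in NLPCs. The crystallin share differed between groups by 65.064 percentage points over all counts and 65.494 over joined genes. Leaving crystallins out gives no count for the lens programme, which holds them. Every other alternative kept each of these counts within 1.5 times of the value reported.

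Leaving out each library in turn gave 4997 to 5236 genes higher in lens and 5865 to 6630 higher in NLPCs, 54 to 56 called lens-programme genes, 37 to 39 neural, 36 to 41 proliferation and 22 to 27 induction and cholesterol genes. The replicate numbers did not pair the libraries (correlation of same-numbered deviations -0.021 to 0.020), and with the replicate block 5069 genes were called higher in lens and 6192 higher in NLPCs. DESeq2 called 6370 and 6429, and every gene with at least 1 count gave 5188 and 7672. With former symbols matched the counts were 5499 and 6849, and with protein-coding genes alone 4796 and 5557, both alternatives chosen after seeing the data.

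Of 2701 comparisons of the 147 named and tested genes with an alternative, 2588 kept direction and call, 55 lost the call, 25 gained it and 33 changed sign. With total counts alone the log2 differences of Actb (-0.22), Aldh1l1 (-1.63), Cdkn2c (-0.89), Cryz (-0.80), Cryzl1 (-1.28), Eef1a1 (-0.38), Fgfr3 (-1.10), Gata3 (-0.11), Hes1 (-1.80), Hes5 (-1.97), Id2 (-1.48), Idi1 (-1.32), Meis2 (-1.73), Myrf (-0.24), Pax6 (-0.40), Pdgfra (-0.44), Sparc (-0.90), Spry1 (-1.06), Syp (-1.48) and Vim (-0.72) turned negative. With crystallins also left out this held for Aldh1l1 (-0.093), Hes1 (-0.26), Hes5 (-0.44) and Meis2 (-0.20). The remaining sign changes were of genes not called with all libraries: Etv5 with RLE (0.028) and without WT NLPC 1 or 3 (-0.13 to 0.072 over all libraries left out), Cdkn2d without WT NLPC 2 (0.0081), Hes5 with every gene of at least 1 count (-0.14), with at least 10 in every library (-0.041) and without Ctrl lens 2 or 3 (-0.079 to 0.20), and Syp without Ctrl lens 2 (-1.37, against up to 1.01 without another). Aldh1l1 and Zeb2 lost their calls with the replicate block and in most of the fits without a library, and Nefh without any single lens library. The causes were not tested. Depth limits the lens more than the NLPCs, since 4651776 to 5716215 counts of its libraries were on other genes than crystallins, and a gene silent in lens is known only to that depth.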

Other observations

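Levels per kilobase of exon were used to compare genes with each other, over 12969 protein-coding nuclear genes, without crystallins and satellite-like models. Of the 100 highest genes in each system, 28 were shared, 63 of the 100 highest in lens were among the 1000 highest in NLPCs, and 73 of the 100 highest in NLPCs were among the 1000 highest in lens. The lens was led by Mip, at 9612 CPM per kilobase, Bfsp2 (7259), Lgsn (7111) and Bfsp1 (6790), and then by Fabp5, a fatty acid binding protein, at 4810, which ranked 208 in NLPCs. The NLPCs were led by Sparcl1 at 1872 CPM per kilobase, followed by the metallothionein gene Mt1 (787), the elongation factor gene Eef1a1 (751), the brain aldolase gene Aldoc (749), B2m, which encodes the light chain of MHC class I molecules (699), and Cst3, a secreted protease inhibitor (651). Mt1 ranked 8157 and Cst3 ranked 122 in lens. These genes were picked after their values were seen.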
